A study of Vitis vinifera and Vitis quinquangularis with 24 samples.

Results

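In the skin of ripening grape berries, 107 of 27711 gene models fell early in both of the grapes studied: their transcripts were already at least 4-fold lower, on a scale of log2(CPM + 1), at E-L 35 than at E-L 33. Here CPM is the count of a model divided by the sum of counts in its library, times 1000000. The models were chosen by these measured values. In each grape the median of log2(CPM + 1) over 3 libraries had to be lower by 2 or more at E-L 35 and by 1 or more at E-L 38, both against E-L 33. The rule uses the E-L 33, E-L 35 and E-L 38 libraries, so the fall itself is a description with no test, and the only test below was made at E-L 34.

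The series sequenced messenger RNA of berry skin in 24 libraries, 3 from each of 8 groups. The groups were the Chinese wild grape Vitis quinquangularis, accession Danfeng-2, in berries of E-L stages 33, 34, 35 and 38, and the wine grape Vitis vinifera cv. Cabernet Sauvignon at the same 4 stages. The labels name no treatment. Each species is represented by 1 cultivar or accession, so a difference of species and a difference of cultivar cannot be told apart, and nothing in the labels tells whether the 3 libraries per group are from separate vines. Total counts per library ran from 13201295 to 23095568.

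The E-L numbers belong to the Eichhorn-Lorenz scale of vine growth. E-L 33 berries are still green and firm, softening starts at E-L 34, colour appears at E-L 35, and E-L 38 is harvest. Around the onset of ripening, called veraison, a berry moves from a green phase of growth, in which the skin photosynthesises, lays down tannins and strengthens its walls and cuticle, to a phase of softening, sugar uptake and, in red grapes, anthocyanin synthesis. Genes that work in the green phase are known to be turned down in this switch. Which of those roles the 107 models have is not reported here: the deposited tables give no gene names, a RefSeq table of grape genes shared 0 of their 27711 identifiers, and models are therefore given by identifier and position. For the same reason the labelled tissue could not be checked against markers of skin, seed or vascular cells, and no sequence is shown. The tissue is bulk skin, in which fewer cells of a type and less RNA per cell cannot be told apart.

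A set of 3 libraries stood apart from their partners: replicate 1 of Danfeng-2 at E-L 33, replicate 1 of Danfeng-2 at E-L 35, and replicate 3 of Cabernet Sauvignon at E-L 34. The 6 pairs of partner libraries that hold one of them had correlations of log2 values across models of 0.941 to 0.973, while the other 18 pairs had 0.996 to 0.998. Among the 107 models the first of these libraries was the most different. In it 62 members were above both partners and 43 below both. The difference from the partners' mean was 1 or more in log2(CPM + 1) for 37 members and -1 or less for 27, while 7.43% of all tested models were that far above and 7.31% that far below. Without the 3 libraries 107 models met the rule, of which 99 are members. The count turned on which Danfeng-2 E-L 33 library was left out: 106 models met the rule without replicate 1, 191 without replicate 2 and 189 without replicate 3. For Danfeng-2 at E-L 35 it was 107 without replicate 1 and 129 without replicate 2 or 3.

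The early fall was shared by a small part of what fell in Cabernet Sauvignon and by most of what fell in Danfeng-2. The rule was met by 175 models in Danfeng-2 and by 1100 in Cabernet Sauvignon. The Danfeng-2 number was 173 without replicate 1 of E-L 33, the library that stood apart, 300 without replicate 2 and 288 without replicate 3. In that order 106, 191 and 189 models met the rule in both grapes, with 1100 in Cabernet Sauvignon each time. The Danfeng-2 number and the share of the Cabernet Sauvignon list thus depend on which of these libraries is left out. The 107 that met it in both are 61.1% of the Danfeng-2 list and 9.73% of the Cabernet Sauvignon list, and 0.386% of all models. Another 68 met it in Danfeng-2 alone, and 993 met it in Cabernet Sauvignon alone. The 993 had a median change in Danfeng-2 of -0.61 in log2(CPM + 1) at E-L 35 and of -1.65 at E-L 38, both against E-L 33.

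All 107 models passed the filter on low counts. At the edge of the list, the 3 members just inside had a weaker fall of -2.01, -2.01 and -2.03, and the 3 models just outside -1.99, -1.99 and -1.98. The weaker fall is the smaller of the 2 grapes' changes in log2(CPM + 1) at E-L 35. It lay between -2.5 and -2 in 55 members, and a further 149 models that met the other conditions had one between -2 and -1.5.

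Together the 107 models took a share of all transcripts that shrank by stage. Their summed level in Danfeng-2 was 34998, 11956 and 11702 CPM in replicates 1, 2 and 3 at E-L 33, then 5866 to 6206 CPM (E-L 34), 1579 to 1840 CPM (E-L 35), and 524 to 545 CPM (E-L 38). In Cabernet Sauvignon it was 18274 to 18381 CPM (E-L 33), 8718 to 11366 CPM (E-L 34), 1137 to 1152 CPM (E-L 35), and 1073 to 1161 CPM (E-L 38). Within each grape no library of a stage overlapped those of the next stage, except at E-L 35 and E-L 38 of Cabernet Sauvignon. That overlap came with VIT_10s0116g01780, the member with the most counts. Without it the Cabernet Sauvignon sums were 863 to 871 CPM (E-L 35) and 743 to 776 CPM (E-L 38), with no overlap. The Danfeng-2 sums without it were 2597 to 2642 CPM (E-L 34) and 771 to 1070 CPM (E-L 35). At E-L 38 every Danfeng-2 library lay below every Cabernet Sauvignon library. The Danfeng-2 mean at E-L 33 was 19552 CPM with all 3 libraries and 11829 CPM without the one that stood apart, against 18340.1 ± 57.8 CPM in Cabernet Sauvignon (SD, n = 3), so the order of the grapes there turns on that library.

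**Figure D1:**
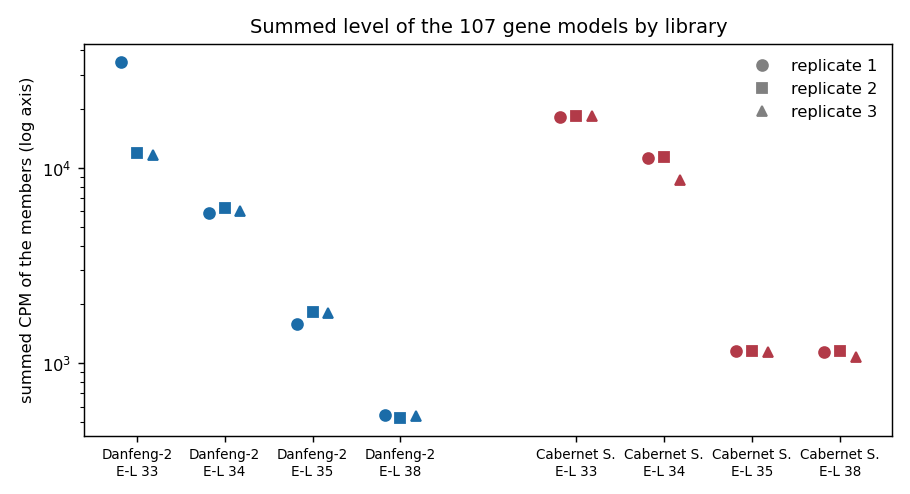
Summed CPM of the 107 gene models (log axis) in each of the 24 libraries, by grape and stage, with the marker shape giving the replicate. The sums fall at each stage in Danfeng-2 down to 524 to 545 CPM, and Danfeng-2 E-L 33 replicate 1 stands above its partners at 34998 CPM. The Cabernet Sauvignon libraries lie between 1073 and 1161 CPM at both E-L 35 and E-L 38. Without VIT_10s0116g01780 they would lie at 863 to 871 CPM at E-L 35 and 743 to 776 CPM at E-L 38.

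The typical member was at or under about 1 CPM by harvest. In stage order the median member stood at 27.4, 8.41, 2.46 and 0.466 CPM in Danfeng-2, and at 49.98, 13.9, 1.76 and 1.03 CPM in Cabernet Sauvignon. On the deposited FPKM scale, which divides by transcript length, the median member had 18.6, 6.31, 1.97 and 0.469 FPKM in Danfeng-2 and 33.4, 10.1, 1.24 and 0.890 FPKM in Cabernet Sauvignon. By the rule, which needs room for the fall, no member was under 1 CPM in every library of a group at E-L 33. At E-L 38 there were 62 such members in Danfeng-2 and 51 in Cabernet Sauvignon, with 0 counts in all 3 libraries for 13 of those in Danfeng-2 and 7 of those in Cabernet Sauvignon.

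The values of the fall, which were not tested, were larger in Cabernet Sauvignon at E-L 35 and about equal at E-L 38. At E-L 35, against E-L 33, members had a median change of -2.67 in log2(CPM + 1) in Danfeng-2 (range -6.52 to -2.01) and -3.59 in Cabernet Sauvignon (range -8.17 to -2.09). The change was steeper in Danfeng-2 for 25 members and in Cabernet Sauvignon for 82. By E-L 38 the median changes were -3.58 in Danfeng-2 and -3.59 in Cabernet Sauvignon, with 49 members steeper in Danfeng-2 and 58 in Cabernet Sauvignon. Between those stages the median member moved by -0.67 in Danfeng-2 and by -0.08 in Cabernet Sauvignon. More members were already under 1 CPM in every E-L 35 library in Cabernet Sauvignon (44, against 23 in Danfeng-2), which bounds a further fall. Across the 107 members, which share libraries and were chosen on these falls, Spearman's rho between the changes at E-L 35 in the 2 grapes was 0.29.

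**Figure D2:**
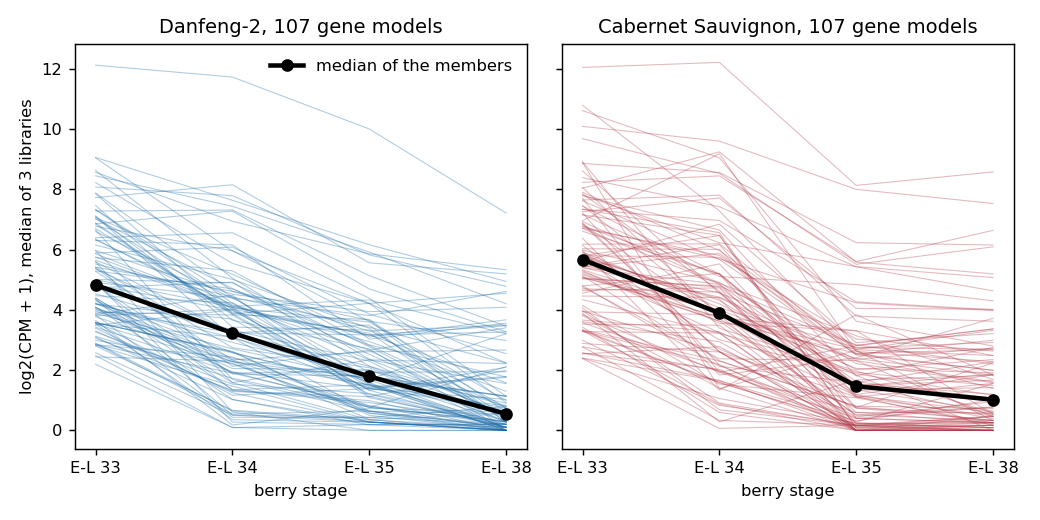
Median log2(CPM + 1) of 3 libraries at each of the 4 stages for the 107 gene models, Danfeng-2 on the left and Cabernet Sauvignon on the right, 1 thin line per model and the median of the models in black. The median line keeps dropping after E-L 35 in Danfeng-2, by a median change of -0.67 per member, and is nearly level there in Cabernet Sauvignon, with -0.08. Members already near 0 CPM at E-L 35 can hardly drop further on this scale.

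VIT_10s0116g01780, on chromosome 10 from 1056785 to 1058642 on the plus strand, took the most counts of all members at E-L 33. Its levels in Danfeng-2 were 6875, 4463 and 4265 CPM (E-L 33), 3269.8, 3564 and 3396 CPM (E-L 34), 509, 1053 and 1028 CPM (E-L 35), and 154, 146 and 148 CPM (E-L 38). In Cabernet Sauvignon they were 4218, 4261 and 4239 CPM (E-L 33), 4759.6, 4794 and 3057 CPM (E-L 34), 279.8, 285 and 274 CPM (E-L 35), and 382, 385 and 330.3 CPM (E-L 38). In medians of log2(CPM + 1) it had moved by -0.39 in Danfeng-2 and 0.17 in Cabernet Sauvignon at E-L 34, so most of the fall lay after that stage in both grapes. Every Danfeng-2 library was above every Cabernet Sauvignon library at E-L 35 and below every one at E-L 38.

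VIT_04s0008g03940, on chromosome 4 from 3279191 to 3289099 on the plus strand, took the second most counts and left a steeper trace. Danfeng-2 had 4141, 527 and 495 CPM (E-L 33), 57.7, 61.0 and 65.9 CPM (E-L 34), 1.59, 17.6 and 19.9 CPM (E-L 35), and 0.532, 0.893 and 1.06 CPM (E-L 38). Cabernet Sauvignon had 1551, 1567 and 1569.6 CPM (E-L 33), 535, 529 and 297 CPM (E-L 34), 11.5, 10.8 and 11.3 CPM (E-L 35), and 5.97, 5.79 and 6.83 CPM (E-L 38). Danfeng-2 replicate 1 was far above its partners at E-L 33 and below them at E-L 35. At E-L 34 and E-L 38 all Danfeng-2 libraries lay below all Cabernet Sauvignon libraries.

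The 2 members with the strongest weaker fall were at 3.14 CPM or less in every E-L 35 library. VIT_12s0059g01830, on chromosome 12 from 6698524 to 6699078 on the plus strand, had 2423, 99.6 and 89.3 CPM in the E-L 33 libraries of Danfeng-2 and 0.145, 0.552 and 0.562 CPM (E-L 35). In Cabernet Sauvignon it had 267, 269 and 265 CPM (E-L 33) and 0, 0.0608 and 0 CPM (E-L 35). Its changes at E-L 35 were -6.02 in Danfeng-2 and -8.06 in Cabernet Sauvignon, in log2(CPM + 1). VIT_03s0038g01830, on chromosome 3 from 1283253 to 1285733 on the plus strand, had 2771, 61.3 and 51.8 CPM in the E-L 33 libraries of Danfeng-2 and 0.217, 0.276 and 0.281 CPM (E-L 35), against 483, 500.2 and 480.4 CPM (E-L 33) and 3.14, 2.92 and 2.55 CPM (E-L 35) in Cabernet Sauvignon. In both models Danfeng-2 E-L 33 replicate 1 was above all 3 Cabernet Sauvignon libraries and its partners below all 3.

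The steepest fall at E-L 35 in either grape was that of VIT_06s0004g07680, on chromosome 6 from 8478430 to 8480638 on the plus strand, with a change of -2.90 in Danfeng-2 and of -8.17 in Cabernet Sauvignon. It had 454, 554 and 532 CPM in the E-L 33 libraries of Danfeng-2 and 100.2, 67.8 and 70.6 CPM (E-L 35), and in Cabernet Sauvignon 1775, 1776 and 1763 CPM (E-L 33) and 4.61, 6.20 and 5.16 CPM (E-L 35). The libraries of the 2 grapes overlapped at neither stage: Danfeng-2 was the lower grape at E-L 33 and the higher one at E-L 35.

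How far the fall to E-L 35 had gone at E-L 34 was read as a position. A position of 0% means that the E-L 34 value equals that at E-L 33, and 100% that it equals that at E-L 35, in medians of log2(CPM + 1). The median position was 60.1% in Danfeng-2 and 35.4% in Cabernet Sauvignon. Computed from each E-L 34 library in turn, it was 60.8%, 61.0% and 60.3% in Danfeng-2 and 34.5%, 36.2% and 36.3% in Cabernet Sauvignon. The 3 values of a grape share the same E-L 33 and E-L 35 medians. Their spread thus leaves out the differences among the libraries of those stages. The position was higher in Danfeng-2 for 74 of 107 members. It shares the E-L 33 and E-L 35 libraries with the rule and was not tested. It also divides by each grape's own fall to E-L 35, with a median change of -2.67 in Danfeng-2 and -3.59 in Cabernet Sauvignon. An equal drop at E-L 34 thus gives a higher position where that fall is smaller. The median member went from 27.4 to 8.41 CPM in Danfeng-2 and from 49.98 to 13.9 CPM in Cabernet Sauvignon by E-L 34. The position alone does not tell in which grape the fall began earlier. Without the 3 libraries that stood apart the median positions were 61.3% in Danfeng-2 and 34.7% in Cabernet Sauvignon.

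By this measure 69 members in Danfeng-2 and 39 in Cabernet Sauvignon had made at least 50% of the fall at E-L 34. The same 34 did so in both grapes, 35 in Danfeng-2 alone, 5 in Cabernet Sauvignon alone and 33 in neither. At least 90% was reached by 25 members in Danfeng-2 and 9 in Cabernet Sauvignon. At the other end, 9 members in Danfeng-2 and 15 in Cabernet Sauvignon had a higher value at E-L 34 than before it. Of the 3 steps between stages, the steepest was E-L 33 to E-L 34 for 59 members in Danfeng-2 and 39 in Cabernet Sauvignon, E-L 34 to E-L 35 for 31 in Danfeng-2 and 67 in Cabernet Sauvignon, and E-L 35 to E-L 38 for 17 in Danfeng-2 and 1 in Cabernet Sauvignon. Across members, Spearman's rho between the positions in the 2 grapes was 0.33, a description over values that share libraries.

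**Figure D3:**
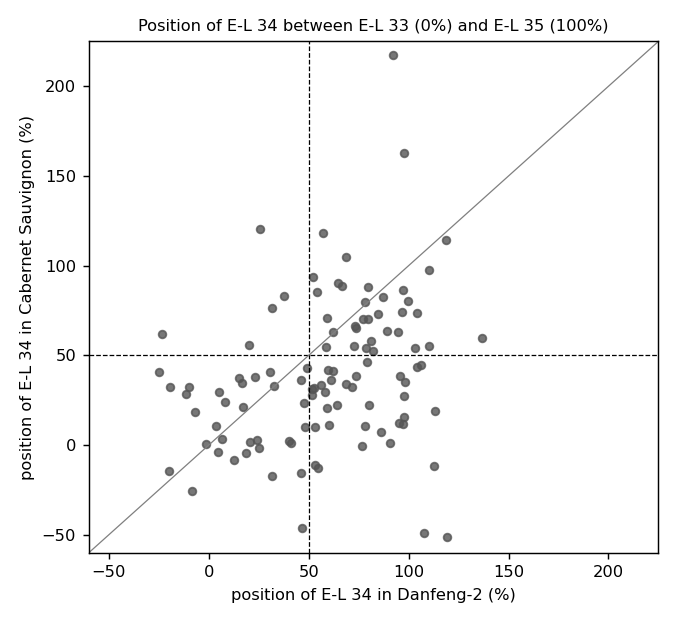
Position of E-L 34 between E-L 33 (0%) and E-L 35 (100%) for each of the 107 gene models, in Danfeng-2 on the horizontal axis and in Cabernet Sauvignon on the vertical axis, with the dashed lines at 50% and the grey line where both are equal. Of the points, 74 lie below the grey line, and the medians are 60.1% in Danfeng-2 and 35.4% in Cabernet Sauvignon.

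Single members show the range of timing. VIT_14s0083g00640, on chromosome 14 from 22696160 to 22698346 on the plus strand, had a higher median at E-L 34 than before it in both grapes, with positions of -19.8% in Danfeng-2 and -14.2% in Cabernet Sauvignon. It had 215, 209 and 211 CPM in the E-L 33 libraries of Danfeng-2, 284, 291 and 279.6 CPM (E-L 34) and 141, 45.3 and 46.3 CPM (E-L 35). In Cabernet Sauvignon it had 156, 152 and 148 CPM (E-L 33), 209, 219 and 123 CPM (E-L 34) and 15.5, 17.4 and 15.6 CPM (E-L 35). The libraries that stood apart were again the odd ones: Danfeng-2 E-L 35 replicate 1 was above its partners, and Cabernet Sauvignon E-L 34 replicate 3 below its own and below all E-L 33 libraries of its grape.

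By contrast VIT_11s0016g02110, on chromosome 11 from 1702506 to 1704930 on the minus strand, was already past its E-L 35 level at E-L 34 in both. Danfeng-2 had 84.6, 11.5 and 11.3 CPM (E-L 33), 0.0702, 0.131 and 0.207 CPM (E-L 34) and 0.651, 0.414 and 0.913 CPM (E-L 35). Cabernet Sauvignon had 82.1, 82.5 and 78.5 CPM (E-L 33), 2.73, 2.58 and 1.44 CPM (E-L 34), 3.71, 5.23 and 4.31 CPM (E-L 35) and 12.2, 12.5 and 9.76 CPM (E-L 38). All E-L 34 libraries lay below all E-L 35 libraries in each grape, and in Cabernet Sauvignon the E-L 38 libraries were above both.

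A neighbouring pair on the minus strand of chromosome 1 turned at different stages in the 2 grapes. VIT_01s0011g02710 lies from 2424497 to 2425150 and VIT_01s0011g02720 from 2427700 to 2428200, with 2549 bases and no other model between them. VIT_01s0011g02720 had 21.6, 40.8 and 40.8 CPM in the E-L 33 libraries of Danfeng-2, 3.23, 4.39 and 3.38 CPM (E-L 34), 2.68, 5.31 and 7.23 CPM (E-L 35) and 0.2, 0.67 and 0.303 CPM (E-L 38). In Cabernet Sauvignon it had 124, 113 and 131 CPM (E-L 33), 569, 579.8 and 638 CPM (E-L 34), 5.70, 5.17 and 5.05 CPM (E-L 35) and 4.41, 3.86 and 2.73 CPM (E-L 38). The model was thus at its peak at E-L 34 in Cabernet Sauvignon and close to its E-L 35 level at the same stage in Danfeng-2.

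VIT_01s0011g02710 followed the same course, with 16.4, 16.3 and 17.2 CPM in Danfeng-2, against 606, 616 and 586 CPM in Cabernet Sauvignon at E-L 34. The position was 108% in Danfeng-2 and -49.2% in Cabernet Sauvignon for this model, and 119% in Danfeng-2 and -51.1% in Cabernet Sauvignon for VIT_01s0011g02720. Whether reads were shared between these 2 short models, of 408 and 401 bp, was not tested.

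At E-L 34 the grapes were compared with edgeR's quasi-likelihood test over all 18375 tested models, and calls needed both an adjusted p (Benjamini-Hochberg) below 0.05 and a difference of at least 2-fold. Of the 107 members, 55 were called lower in Danfeng-2 than in Cabernet Sauvignon, which is 51.4%, beside 14.6% of all tested models. Another 17 were called higher in Danfeng-2, which is 15.9%, beside 12.8% of all tested models, and 35 were not called. The share called higher is thus near that of all models, and the share called lower is above it. The members' median log2 fold change, Danfeng-2 over Cabernet Sauvignon, was -1.13 (quartiles -2.91 and 0.28), beside -0.01 over all tested models.

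The 3 Danfeng-2 libraries all lay below the 3 Cabernet Sauvignon libraries for 63 members, where 27.1% of all tested models did so, and all above for 27 members, where 38.0% of all models did so. Without the 3 libraries that stood apart, 55 members were called lower and 19 higher, beside 15.7% and 15.5% of all models tested in that fit. Of the models that met the rule in 1 grape only, 329 of 993 for Cabernet Sauvignon (33.1%, median log2 fold change -0.44) and 30 of 68 for Danfeng-2 (44.1%, median -0.64) were called lower at E-L 34. A share called lower above 14.6% was thus not a property of the shared list alone.

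Among the members, the difference at E-L 34 went along with the difference before the fall. Of the 55 members called lower, 31 were also lower in Danfeng-2 by 1 or more in log2(CPM + 1) at E-L 33, 21 were within 1 of each other and 3 were higher by 1 or more. Of the 17 called higher, 8 were higher by 1 or more at E-L 33 and 9 within 1. Spearman's rho across members between the grapes' difference at E-L 33 and their difference at E-L 34 was 0.61, as a description. The rule uses the E-L 33 libraries, and neither these counts nor rho was computed over all tested models. Whether the link is particular to the members was not tested. In rho both differences are between medians of log2(CPM + 1), not edgeR fold changes. For the 55, the median difference, Danfeng-2 minus Cabernet Sauvignon, was -1.29, -2.05, -0.22 and -0.58 in stage order. For the 17 it was 0.96, 1.52, 1.5 and 0.11.

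Over all 107 members that median difference was -0.53, -0.74, 0.28 and -0.27 in stage order. On CPM without further scaling, the median over all 18375 tested models was 0.11, 0.12, 0.25 and 0.02 at the 4 stages, and its cause was not tested. Beside the median over all models, that of the members was lower at each stage but E-L 35, where it was about level. Members at least 1 lower in Danfeng-2 numbered 43, 49, 15 and 31 by stage, and those at least 1 higher 15, 18, 33 and 15. Of all tested models 12.5%, 9.63%, 10.6% and 10.8% were that much lower and 12.2%, 12.7%, 18.1% and 12.7% that much higher.

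**Figure D4:**
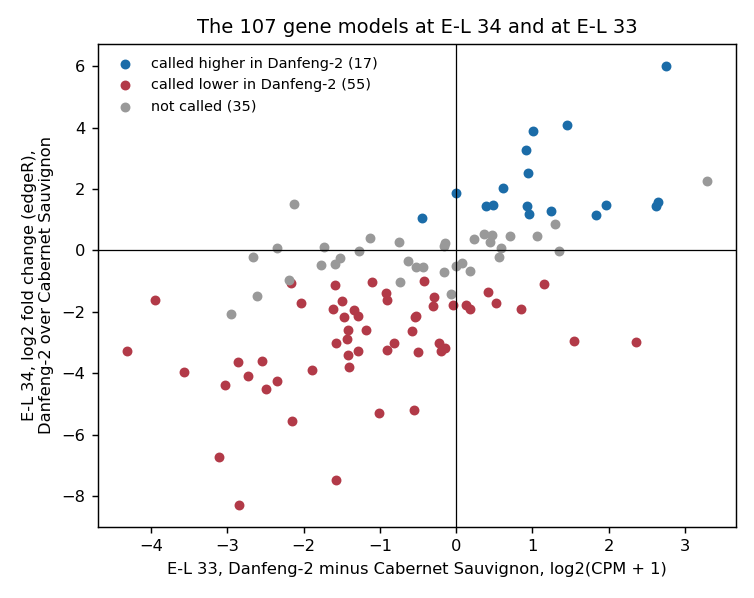
Log2 fold change at E-L 34 from edgeR, Danfeng-2 over Cabernet Sauvignon, against the difference in median log2(CPM + 1) at E-L 33, Danfeng-2 minus Cabernet Sauvignon, 1 point per gene model. The 17 members called higher in Danfeng-2 range between 1.06 and 6.0 and the 55 called lower between -8.27 and -1.01, and 21 of those 55 are within 1 of 0 on the horizontal axis.

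The lowest called fold changes at E-L 34 belonged to VIT_07s0104g01390 and VIT_01s0011g02720, among called members with at least 10 CPM on average in the higher grape. VIT_07s0104g01390, on chromosome 7 from 2407292 to 2407982 on the minus strand, had 0.140, 0.0656 and 0 CPM in Danfeng-2, against 10.5, 13.9 and 42.2 CPM in Cabernet Sauvignon. Its log2 fold change was -8.27 (SE 0.61, adjusted p = 1.44e-09 by edgeR's quasi-likelihood test with Benjamini-Hochberg adjustment), and -7.48 when the 3 libraries that stood apart were left out. Before that, the E-L 33 libraries had 2.90, 4.59 and 4.69 CPM in Danfeng-2, against 39.2, 40.9 and 38.7 CPM in Cabernet Sauvignon. The fold change of so low a group depends on the small count that edgeR adds. From 3 counts in all in Danfeng-2 and 1449 in Cabernet Sauvignon, the ratio of Cabernet Sauvignon over Danfeng-2 was 321 (exact 95% interval 110 to 1557, counting error only).

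VIT_01s0011g02720, whose libraries are given above, averaged 3.67 ± 0.63 CPM in Danfeng-2, against 595 ± 37.2 CPM in Cabernet Sauvignon at E-L 34 (SD, n = 3 each). Its log2 fold change was -7.45 (SE 0.33, adjusted p = 1.0e-12, edgeR's quasi-likelihood test with Benjamini-Hochberg adjustment). For its neighbour VIT_01s0011g02710 it was -5.30 (SE 0.29). VIT_04s0008g03940 was also lower, at 61.5 ± 4.13 CPM in Danfeng-2, against 454 ± 136 CPM in Cabernet Sauvignon (SD, n = 3 each), with a log2 fold change of -3.0 (SE 0.69, edgeR adjusted p = 0.00118).

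Among members called higher in Danfeng-2, VIT_03s0091g00040 and VIT_12s0059g01900 had the highest log2 fold changes. VIT_03s0091g00040, on chromosome 3 from 6338109 to 6339850 on the plus strand, had 20.5, 23.3 and 20.5 CPM in Danfeng-2, against 0.260, 0.185 and 0.465 CPM in Cabernet Sauvignon at E-L 34, a log2 fold change of 6.0 (SE 0.33, edgeR adjusted p = 2.19e-11). Danfeng-2 was the higher grape at the other stages too: it had 89.3, 45.0 and 39.7 CPM (E-L 33) and 3.99, 3.72 and 2.95 CPM (E-L 38), against 5.12, 5.83 and 6.11 CPM (E-L 33) and 0.435, 0.321 and 0.391 CPM (E-L 38) in Cabernet Sauvignon. No library of one grape overlapped those of the other at these 3 stages.

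VIT_12s0059g01900, on chromosome 12 from 6762058 to 6765112 on the plus strand, had 21.4, 19 and 22.5 CPM in Danfeng-2, against 1.08, 1.43 and 0.931 CPM in Cabernet Sauvignon at E-L 34, a log2 fold change of 4.07 (SE 0.34, edgeR adjusted p = 7.79e-09). In Danfeng-2 the E-L 33 libraries had 26.5, 13.4 and 13.2 CPM. All E-L 34 values there lie below replicate 1, the library that stood apart, and above its partners. By the median of 3 libraries the model was thus higher at E-L 34 in Danfeng-2. The Cabernet Sauvignon libraries at E-L 33 had 5.40, 3.92 and 4.26 CPM, all above those at E-L 34.

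VIT_17s0000g02470, on chromosome 17 from 2254297 to 2255476 on the plus strand, shows how much 1 library can decide. At E-L 34 it had 62.4, 61.4 and 61.3 CPM in Danfeng-2, against 0.953, 1.62 and 59.0 CPM in Cabernet Sauvignon, where replicate 3 is the library that stood apart. The log2 fold change was 1.52 (SE 0.94, edgeR adjusted p = 0.184), and without that library it was 5.42 (edgeR adjusted p = 4.23e-05). In Cabernet Sauvignon the model had 476, 480.2 and 461 CPM (E-L 33), 5.32, 5.23 and 5.48 CPM (E-L 35), and 0.249, 0.0643 and 0.521 CPM (E-L 38). Replicates 1 and 2 at E-L 34 were thus below E-L 35, and replicate 3 above it.

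**Figure D5:**
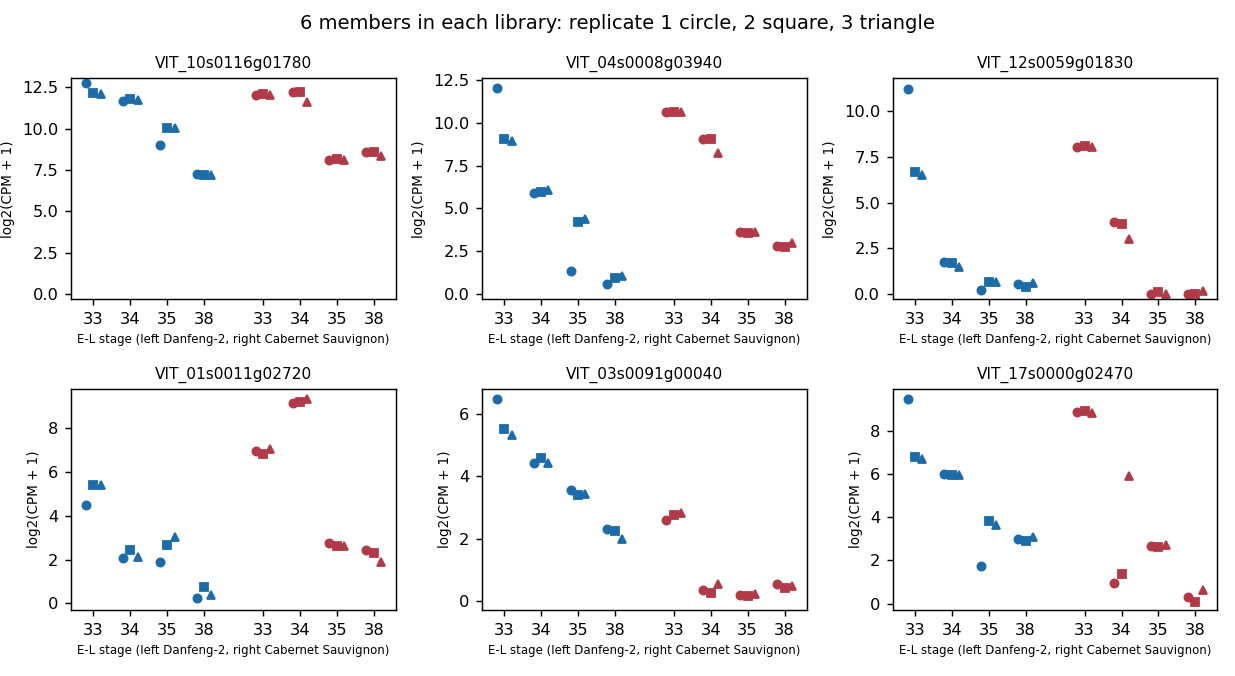
Log2(CPM + 1) of 6 members in each of the 24 libraries, with Danfeng-2 in blue on the left and Cabernet Sauvignon in red on the right of each panel, by E-L stage, and the marker shape giving the replicate. VIT_01s0011g02720 peaks at E-L 34 in Cabernet Sauvignon at 569 to 638 CPM, VIT_03s0091g00040 is higher in Danfeng-2 at every stage, and VIT_17s0000g02470 has 1 Cabernet Sauvignon E-L 34 library at 59.0 CPM against 0.953 and 1.62 CPM in its partners.

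After E-L 35 more members were lower still in Danfeng-2 than in Cabernet Sauvignon. At E-L 38, 84 members were below their E-L 35 value in Danfeng-2 and 58 in Cabernet Sauvignon. A further fall of 1 or more in log2(CPM + 1) was seen in 46 members in Danfeng-2 and 9 in Cabernet Sauvignon, and a return of 1 or more in 2 in Danfeng-2 and 4 in Cabernet Sauvignon. These are values with no test, since the rule used both stages. At E-L 35, 23 members in Danfeng-2 and 44 in Cabernet Sauvignon were already under 1 CPM in every library. Such a member cannot fall by 1 more on this scale, so fewer members could count in Cabernet Sauvignon. The shares over all tested models were not computed.

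The largest return in Danfeng-2 was that of VIT_01s0011g05170, on chromosome 1 from 4810479 to 4841849 on the plus strand, which shares bases with 1 other model, so reads may have been split between them. It had 1.08, 2.83 and 2.25 CPM (E-L 35) and 8.25, 8.48 and 6.82 CPM (E-L 38) in Danfeng-2, still far under its 85.6, 160.2 and 167 CPM (E-L 33). In Cabernet Sauvignon it had 44.8, 44.6 and 48.6 CPM (E-L 35) and 67.3, 75.7 and 56.6 CPM (E-L 38), under 822, 762 and 832 CPM (E-L 33). The E-L 38 libraries lay above the E-L 35 libraries in both grapes.

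VIT_01s0150g00510, on chromosome 1 from 22853989 to 22859795 on the minus strand, had the largest return in Cabernet Sauvignon and was lower still in Danfeng-2. It had 26.9, 19.9 and 17.7 CPM (E-L 35) and 1.13, 1.19 and 1.44 CPM (E-L 38) in Danfeng-2, and 0.704, 0.486 and 0.691 CPM (E-L 35) and 2.67, 3.73 and 4.88 CPM (E-L 38) in Cabernet Sauvignon. Danfeng-2 was above Cabernet Sauvignon in all libraries at E-L 35 and below in all at E-L 38. At E-L 34 its log2 fold change was 1.15 (SE 0.30, edgeR adjusted p = 0.00337), and 0.89 without Cabernet Sauvignon E-L 34 replicate 3, which is under the 2-fold limit.

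VIT_18s0001g03540, on chromosome 18 from 3380455 to 3383288 on the minus strand, had a second, smaller peak at E-L 35 in Cabernet Sauvignon. In Danfeng-2 it had 15.2, 8.85 and 8.63 CPM (E-L 33), 1.83, 1.25 and 1.45 CPM (E-L 34), 1.30, 1.17 and 0.983 CPM (E-L 35) and 3.53, 2.98 and 2.88 CPM (E-L 38). The Cabernet Sauvignon libraries had 61.6, 60.6 and 64.2 CPM (E-L 33), 1.26, 1.52 and 2.05 CPM (E-L 34), 12.8, 13.3 and 14.8 CPM (E-L 35) and 1.99, 2.57 and 3.25 CPM (E-L 38). The position of 218% in Cabernet Sauvignon was the highest of all members. Of the 3 later stages, the libraries of the grapes were apart only at E-L 35, with all of Cabernet Sauvignon above all of Danfeng-2.

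The members are spread over the genome. Each of the 19 chromosomes of the files holds at least 1, and 2 lie on unplaced sequence. Chromosome 7 has 10 members among 978 tested models and chromosome 5 has 1 among 999, beside 0.582% of tested models overall. No 10 consecutive models held more than 2 members, and 9 pairs of members lay that close. Their median length was 1422 bp, against 1710 bp for all tested models, and 11 overlap another model, 8 of them one on the other strand, so that their counts may hold reads of that model. None of the 679 newly predicted models of the tables is among them.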

How the data were processed

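RNA sequencing of grape skin gave 24 libraries, 1 deposited table each. TopHat2 was the aligner, per the submitters' processing notes. No label or file header names the build, annotation, counter or strand setting (not given in the sources used here). Per the file headers, a table has columns for Count, FPKM, Normalized (a signal, not used here) and Length in bp. The deposited counts are whole numbers with a different sum per library, and were the unit of the rule and the test. The FPKM values were computed by the authors and served for levels and an alternative. Coordinates are those of the files. The same models serve both grapes, and whether reads of Danfeng-2 align as well as those of Cabernet Sauvignon was not tested.

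CPM is the count over the library's sum, times 1000000. For the test, models were kept by filterByExpr (18375), libraries scaled by TMM, and 8 groups fitted to all 24 libraries with edgeR 4.0.16 in R 4.3.3, by the quasi-likelihood test with Benjamini-Hochberg adjustment over all tested models. The common biological coefficient of variation was 0.2. The p-values reflect no more than the spread among the libraries sequenced, and that spread could be technical. The edgeR step was run on simulated counts of 17839 models. It recovered 82 of 95 planted 3-fold and 90 of 105 planted 4-fold changes, with 4 false calls. Apart from these changes the simulation gave each model the same level in all groups, unlike these data. It thus does not vouch for single calls here. No replicate block was used. Same-numbered E-L 34 libraries did not deviate together, a check that cannot exclude pairing by number.

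The members and lists were chosen with earlier results of these data known. The rule for named members took the most counts at E-L 33, the lowest and highest called fold changes at E-L 34, the strongest weaker fall, the lowest and highest positions and the largest returns, of which at most 2 identifiers per direction are printed, with the neighbour of one; VIT_06s0004g07680 and VIT_18s0001g03540 were picked from those lists after their values were seen. Gene lists and cell type markers were written as product words and could not be run without names. Alternatives were RLE factors, other filters, DESeq2 1.42.0, limma 3.58.1 on FPKM, the replicate number as a block, the compared groups alone, other thresholds, pseudocounts and scalings, and leaving out each library; leaving out the 3 libraries that stood apart was chosen after seeing the data.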

Additional observations from a re-analysis of the deposited data

How the results depend on the processing

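The calls at E-L 34 stayed within 1.5 times under every alternative run: 45 to 56 members lower in Danfeng-2 and 15 to 19 higher, while 10.2% to 26.5% of all tested models were called lower and 9.52% to 26.2% higher. The upper ends are from calls with no fold minimum, where 17 members, 15.9%, were called higher beside 26.2% of all models, below and no longer near that share. The lowest count, 45, came from DESeq2, which gave 19 members no adjusted p. With a replicate block, 54 members were lower and 17 higher, 71 in all, against 72 without it. The deviations of same-numbered E-L 34 libraries correlated at -0.03, 0.03 and -0.02. A Cabernet Sauvignon library stood apart at that stage and the other stages were not checked, so pairing by number is not excluded. The 31 members that the naming rule selects kept direction and call in 426 of 456 alternative values, lost the call in 23 and gained it in 7, with no reversal. Fits that gave a member no adjusted p are not in this count, such as DESeq2 for VIT_04s0008g03940 and VIT_12s0059g01830. VIT_12s0059g01830, at an edgeR adjusted p of 0.0268, lost its call without any one of 5 of the 6 E-L 34 libraries, where the adjusted p was 0.0574 to 0.0772. VIT_03s0038g01830 was not called, at an edgeR adjusted p of 0.1. It was called at an edgeR adjusted p of 1.1e-12 without the 3 libraries that stood apart, and of 0.000661 in a fit of the E-L 34 groups alone. That last fit called 56 members lower and 18 higher, beside 13.9% and 12.5% of all models tested in it.

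The list itself depended more on its settings. The rule was met by 331 models with a pseudocount of 0.1, 39 with a pseudocount of 5 and 172 with the mean in place of the median, against 107; 96 met it with TMM scaling, and 92 with FPKM, of which 82 are members. Of the 172, 92 are members. Leaving out 1 library gave 106 to 191 models. Not all members stayed: 91 did without Danfeng-2 E-L 33 replicate 2 and 89 without replicate 3. Without replicate 2 or 3 of Danfeng-2 at E-L 35, 88 members stayed each time, among 129 models. The median position in Danfeng-2 was 56.8% with a pseudocount of 0.1, 62.6% with the mean, 61.3% without the 3 libraries that stood apart and 60.4% to 61.1% leaving out 1 E-L 34 library. In Cabernet Sauvignon it was 34.3% with TMM scaling, 30.7% with a pseudocount of 0.1, 36.4% with the mean and 34.7% to 37.6% leaving out 1 E-L 34 library. It was higher in Danfeng-2 in each of these settings; E-L 33 and E-L 35 libraries were not left out singly for this value. The cause of these shifts was not tested. Many members end near 0 counts, where the pseudocount bounds the size of a fall.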

Other observations

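Among members with 0 counts in all 3 libraries of a group, VIT_07s0031g01680 had a median of 137 CPM in Danfeng-2 at E-L 33. Taking 3 counts over the 3 libraries as the floor, its level at E-L 38 was at least 1906-fold lower than at E-L 33. VIT_06s0080g00760 had 0 counts in all libraries of both grapes at E-L 38, which makes it at least 1905-fold lower than the E-L 33 median of 137 CPM in Danfeng-2, and at least 205-fold lower than that of 13.1 CPM in Cabernet Sauvignon. The Danfeng-2 libraries disagree at E-L 33, where replicates 1, 2 and 3 had 527, 132 and 137 CPM of VIT_07s0031g01680 and 2105 (replicate 1, the library that stood apart), 137 and 133 CPM of VIT_06s0080g00760, so both Danfeng-2 bounds rest on replicates 2 and 3. The floor covers counting error only. Both were chosen after their values were seen.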
